A study of Mus musculus with 24 samples.

Results

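The 7 genes Cst3, Cst7, Cst9, Cst11, Cst12, Cst13 and Cstdc2 belong to the cystatin family of mouse chromosome 2, the chromosome that the custom array covers in part. They were taken by symbol from the array's annotation, whatever their values, and make up 7 of its 341 genes, 27 of 3919 exon rows and 111 of 13388 probes. Exon rows with the same coordinates were averaged, which left 24 exon features of 3099. RNA from congenic and B6 mice was hybridised in 8 groups of 3 samples, in the order congenic and B6 brain, congenic and B6 liver, congenic and B6 adipose, and congenic and B6 muscle. The congenic mice are of the B6.S-2 strain, which carries chromosome 2 DNA of SPRET/Ei, an inbred line of Mus spretus, on a C57BL/6J background (B6). The adipose tissue was epididymal white fat and the muscle gastrocnemius. The titles give genotype, tissue and replicate, while the treatment label calls every sample congenic. Age is not given. The growth label speaks of chow and, for a group of B6.S-2 males, of a fat-rich purified diet, but ties no sample to a diet or an animal, so diet and genotype cannot be told apart. The design states 3 biological replicates per group, and whether an animal gave several tissues is not said.

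Cystatins are small proteins that block papain-like cysteine proteases, among them several, but not all, cathepsins of the lysosome. Type 2 cystatins are secreted, and their genes lie side by side in a cluster. Cst3 encodes cystatin C, made in most tissues and abundant in brain and cerebrospinal fluid. Cst7 encodes cystatin F, a lysosomal inhibitor of immune cells. Cst9, Cst11, Cst12 and Cst13 are known chiefly from the testis and the epididymis, and Cstdc2 is named for its cystatin domain. In the coordinates of the files, whose build is not given in the sources used here, Cst11 starts the group at 148521176 to 148524056 on the minus strand. Cst12 (148541944 to 148545990), Cst13 (148572657 to 148582963) and Cst9 (148587716 to 148591293) follow on the plus strand. Cstdc2 (148599275 to 148603493) and Cst3 (148624290 to 148628027) lie on the minus strand. Cst7 stands apart at 150633730 to 150642252 on the plus strand. Cst3, Cst9, Cst11, Cst12 and Cstdc2 each have 3 exon features, Cst13 has 4 and Cst7 has 5.

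Start regions of 6 of the 7 genes were found in RefSeq's table for GRCm38.p6, and 3 are shown because the results turn on their genes: Cst12 and Cstdc2, which were high in adipose samples, and Cst3, which was high in brain. Each holds 250 bases before and 50 bases after the start of the gene, 5′ to 3′. Capitals mark AGAACA or its reverse complement TGTTCT, the half-site letters of androgen and glucocorticoid receptors, and CCGCCC or its reverse complement GGGCGG, the letters of a GC box. TATAAA and its reverse complement TTTATA were also searched. These motifs were chosen after the tissue pattern had been seen. The windows lie at chr2:148789115-148789414 (plus strand), chr2:148850885-148851184 (minus strand) and chr2:148875463-148875762 (minus strand).
Cst12: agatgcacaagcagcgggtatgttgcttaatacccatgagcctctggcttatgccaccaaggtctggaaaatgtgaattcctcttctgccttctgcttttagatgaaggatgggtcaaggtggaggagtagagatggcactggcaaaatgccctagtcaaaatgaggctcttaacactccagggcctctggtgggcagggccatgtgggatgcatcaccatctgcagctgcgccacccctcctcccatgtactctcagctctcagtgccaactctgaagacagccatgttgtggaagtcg
Cstdc2: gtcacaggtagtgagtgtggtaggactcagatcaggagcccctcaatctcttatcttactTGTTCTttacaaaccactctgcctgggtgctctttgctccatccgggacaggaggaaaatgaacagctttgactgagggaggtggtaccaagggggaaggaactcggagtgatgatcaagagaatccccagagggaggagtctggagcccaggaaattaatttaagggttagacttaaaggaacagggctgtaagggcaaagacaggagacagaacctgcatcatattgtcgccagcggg
Cst3: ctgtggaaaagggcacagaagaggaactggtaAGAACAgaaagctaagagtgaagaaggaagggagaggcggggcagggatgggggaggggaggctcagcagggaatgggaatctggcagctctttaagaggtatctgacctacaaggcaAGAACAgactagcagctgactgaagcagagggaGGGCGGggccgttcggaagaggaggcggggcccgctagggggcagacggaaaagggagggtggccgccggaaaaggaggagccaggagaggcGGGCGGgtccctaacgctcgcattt
The Cst12 window held none of the 3 motifs and 52.7% G and C. The Cstdc2 window held 1 TGTTCT, starting 190 bases before the gene, and 50.3% G and C. The Cst3 window held 2 AGAACA, 218 and 100 bases before the start, 2 GGGCGG and 60.3% G and C. Of 32851 RefSeq windows of this length, 19.0% held AGAACA on either strand, 35.7% held CCGCCC and 13.6% held TATAAA, and the median share of G and C was 52.7%.

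Values are log2 normalised intensities of the exon features, summarised to 1 value per gene and array. A level of 1 gene is not set against that of another, since probes differ in brightness. Brain and liver samples shared slide 1, with median raw intensities of 232 to 1237, and slide 2 carried the adipose and muscle samples, at 916 to 3571. Tissue differences were therefore tested within a slide, as brain minus liver and adipose minus muscle over both genotypes. Across slides, tissue and slide cannot be told apart, so an order over the 4 tissues is a description. The threshold was a Benjamini-Hochberg adjusted p of 0.05 in limma over all genes of the array, and ± after a difference is its standard error.

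Cst11, Cst12 and Cstdc2 were far higher in adipose than in muscle, by 12.9-fold, 6.03-fold and 8.01-fold. Cst3 was 4.60-fold higher in brain than in liver. Cst7 was slightly lower in adipose than in muscle, and Cst9 and Cst13 did not pass there. In bulk tissue, fewer cells of a type and less RNA per cell cannot be told apart. By the limma F test over the 4 tissues, 6 of the 7 genes passed, against 71.6% of all genes, and Cst9 did not (adjusted p = 0.0955). Between adipose and muscle, 3 of 7 were higher in adipose and 1 was lower, where 36.1% of all genes passed, 15.8% as higher and 20.2% as lower. Between brain and liver, 3 of 7 passed, where 34.3% of all genes did.

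**Figure D1:**
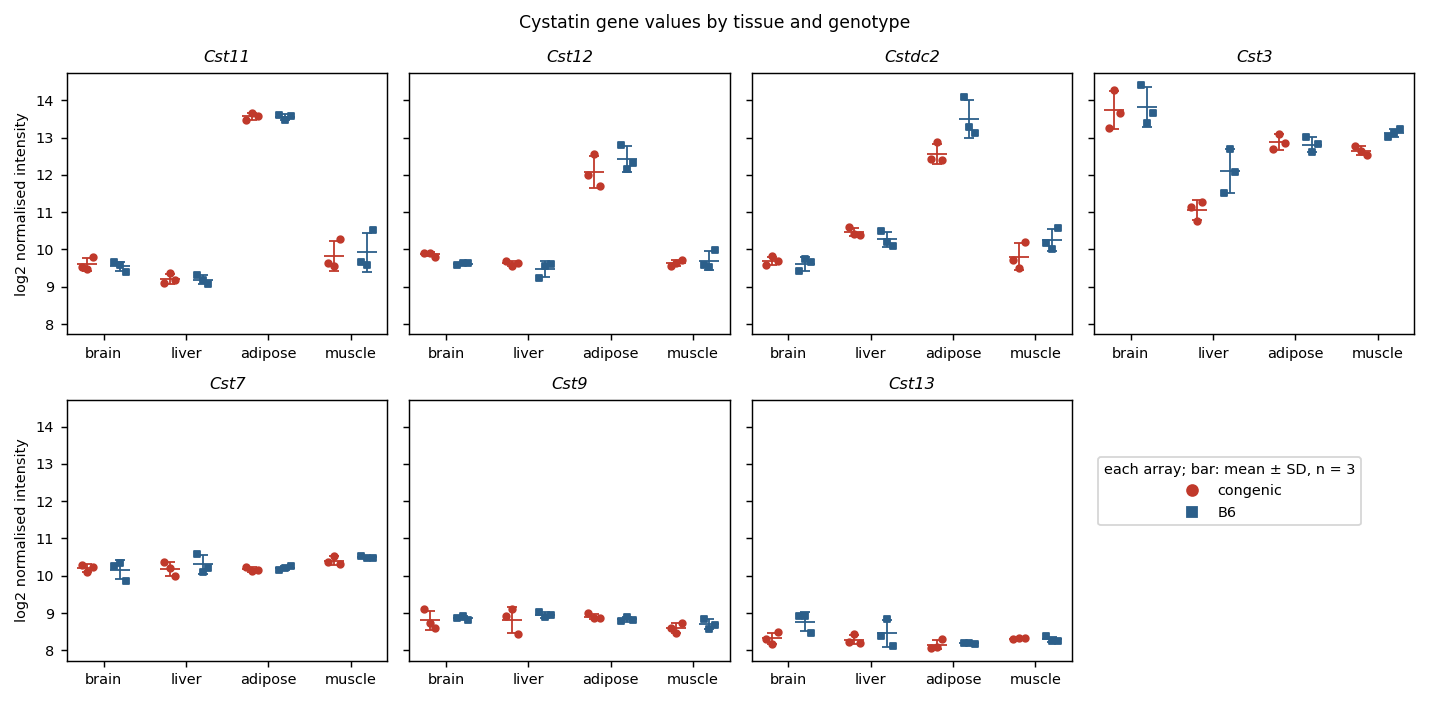
Gene values of the 7 cystatin genes (log2 normalised intensity) in each of the 24 arrays, by tissue, with congenic samples as circles left of B6 samples as squares; horizontal marks and bars are the mean ± SD of 3. Cst11, Cst12 and Cstdc2 stand higher in each of the 6 adipose samples than in any other sample, and Cst3 is lowest in liver.

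Cst11, a cystatin-related gene of the epididymis, stood at 13.48, 13.67 and 13.57 in congenic adipose and at 13.61, 13.48 and 13.57 in B6 adipose. In muscle it stood at 9.63, 9.55 and 10.28 in congenic and at 9.67, 9.59 and 10.52 in B6 samples. The groups did not overlap, and replicate 3 of each genotype was the highest of its muscle group. The difference was 3.69 ± 0.14 (limma, adjusted p = 8.68e-15), and it lay between 3.34 and 4.63 in 11 alternative settings, all of which passed. Its mean was 13.56 ± 0.077 in adipose, 9.87 ± 0.42 in muscle, 9.57 ± 0.14 in brain and 9.20 ± 0.11 in liver (SD, n = 6 each). Muscle and brain overlapped in that order, while each brain sample exceeded each liver sample, by 0.37 ± 0.14 on average (limma, adjusted p = 0.0389). The call between brain and liver held in 4 of 11 alternative settings, in which the difference ran from 0.018 to 0.39, and after 9 of 24 omissions of a single array.

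Cst12, known from testis and epididymis, reached 12.01, 12.55 and 11.70 in congenic adipose and 12.81, 12.16 and 12.31 in B6 adipose. Congenic muscle had 9.56, 9.63 and 9.71, and B6 muscle 9.58, 9.54 and 9.99. Every adipose sample was above every muscle sample, by 2.59 ± 0.12 on average (limma, adjusted p = 3.87e-13). That difference was 2.14 to 3.63 in the alternative settings and passed in each of the 11. Brain (9.74 ± 0.14), muscle (9.67 ± 0.17) and liver (9.55 ± 0.17; SD, n = 6 each) overlapped below adipose at 12.26 ± 0.40. Brain minus liver was 0.20 ± 0.12 (limma, adjusted p = 0.233).

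Cstdc2 stood at 12.41, 12.88 and 12.41 in congenic adipose and at 14.09, 13.28 and 13.13 in B6 adipose. In muscle it stood at 9.70, 9.51 and 10.21 in congenic and at 10.16, 10.02 and 10.57 in B6 samples. Adipose exceeded muscle by 3.00 ± 0.15 (limma, adjusted p = 9.33e-13) with no overlap. The order below adipose was liver at 10.37 ± 0.19, muscle at 10.03 ± 0.38 and brain at 9.65 ± 0.14 (SD, n = 6 each). Muscle overlapped both neighbours, and brain was lower than liver by -0.72 ± 0.15 (limma, adjusted p = 9.95e-04). With the authors' value table in place of the exon intensities, brain minus liver was -0.33 (limma, adjusted p = 0.335).

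Markers of the epididymis moved with these 3 genes. Of 20 listed epididymis and testis genes outside the cystatins, 10 were measured. Between adipose and muscle 7 of the 10 were higher in adipose and 1 was lower, with a median difference of 1.57, against -0.046 over all genes. Their summed level (linear scale) was 37817 to 42557 in congenic adipose and 35103 to 38557 in B6 adipose, against 12014 to 13336 in congenic muscle and 12118 to 13036 in B6 muscle. The protease inhibitor genes Spint4 and Eppin exceeded muscle by 3.85 ± 0.17 and 2.03 ± 0.09. Of 4 adipocyte genes, all measured, 3 were higher in adipose than in muscle and 1 was lower, with a median of 0.41. The part of epididymal RNA in the cystatin levels was not tested.

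The same likeness appeared across single samples. Over the 24 samples, Cst11 correlated most with the beta-defensin gene Defb20 (r = 0.992), Spint4 (r = 0.985) and BC049753, a transcript without a symbol (r = 0.981). Cst12 was most like BC049753 (r = 0.989), Defb20 (r = 0.977) and Cst11 (r = 0.976). Cstdc2 was most like BC049753 (r = 0.969), Cst12 (r = 0.952) and Defb20 (r = 0.950). These values describe samples that share a slide and a tissue, and the 6 adipose samples stand apart from the rest. In muscle alone, Defb20 was 8.99, 9.07 and 10.15 in congenic and 9.17, 9.12 and 10.24 in B6 samples. It was thus highest in replicate 3 of each genotype, as Cst11, Cst12, Cstdc2 and Spint4 were. Eppin was instead lowest in replicate 3, with 8.59, 8.60 and 8.52 in congenic and 8.51, 8.51 and 8.47 in B6 muscle. In congenic adipose, Cst11, Cst12, Cstdc2, Defb20 and Spint4 were highest in replicate 2. In B6 adipose, Cst11, Cst12, Cstdc2 and Defb20 were highest in replicate 1, whereas Spint4 was lowest there (11.81, 12.28 and 12.54).

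Exon by exon, the 3 genes were high together: 9 of their 9 exon features passed as higher in adipose than in muscle, where 12.5% of all features did. Of all 24 cystatin features 13 passed in either direction, against 28.6% of all features. The differences ran from 2.96 to 3.86 in Cst11, from 2.01 to 3.06 in Cst12 and from 2.13 to 4.02 in Cstdc2. Exon 3 of Cst11 was the brightest of the 3919 rows on all 6 adipose arrays. Its raw intensity was 33896, 26050 and 42396 in congenic adipose and 30236, 45570 and 42337 in B6 adipose. Quantile normalisation gives the brightest row of each array the same value, so this exon reads 14.83 in all 6 and can show no genotype difference there.

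Cst3, the gene of cystatin C, stood at 13.27, 14.28 and 13.65 in congenic brain and at 14.41, 13.38 and 13.67 in B6 brain. Congenic liver had 11.14, 10.76 and 11.26, and B6 liver 11.51, 12.69 and 12.07. Each brain sample exceeded each liver sample, by 2.20 ± 0.19 on average (limma, adjusted p = 1.71e-08). The order was brain at 13.78 ± 0.47, muscle at 12.89 ± 0.28, adipose at 12.85 ± 0.19 and liver at 11.57 ± 0.70 (SD, n = 6 each). The lowest brain value lay above the highest muscle value, and liver overlapped adipose. Adipose and muscle overlapped too, with adipose minus muscle at -0.045 ± 0.19 (limma, adjusted p = 0.878). All 3 exons were higher in brain than in liver, by 2.25 to 2.42, among 7 of 24 cystatin features that passed in either direction, where 27.8% of all features did. Of the 24 samples, values of Cst3 followed most closely those of Fkbp1a (r = 0.847), Dtd1 (r = 0.814) and Dynlrb1 (r = 0.751).

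Cst7, the immune cell inhibitor, ran from 9.87 to 10.59 over the 24 arrays. Adipose minus muscle was -0.26 ± 0.09 (limma, adjusted p = 0.0254), with levels of 10.19 ± 0.054 in adipose and 10.45 ± 0.095 in muscle (SD, n = 6 each) that did not overlap. All 5 of its exon features were lower in sign in adipose, from -0.78 to -0.097, and a difference between them was not tested. The long form of exon 1 differed by -0.78 ± 0.18 and exon 2 by -0.40 ± 0.11, and the other 3 features did not pass. Of 7 listed immune genes 4 were measured, and 2 of them passed, both higher in adipose than in muscle. With median scaling the adjusted p of Cst7 was 0.0602 in limma.

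Cst9, known as testatin from the fetal testis, ran from 8.44 to 9.11 and Cst13 from 8.07 to 8.91. Adipose minus muscle was 0.22 ± 0.10 for Cst9 (limma, adjusted p = 0.0777) and -0.13 ± 0.10 for Cst13 (adjusted p = 0.316). The sign for Cst9 turned with dim features left out, at -0.27 (limma, adjusted p = 0.0429), which is the difference of its exon 1. Over the 3 exons of Cst9 the difference ran from -0.27 in exon 1 to 0.34. Over 11 alternative settings that of the gene ran from -0.27 to 0.30 and passed in 5. That of Cst13 passed in 1 of 11, with only the samples compared (-0.13; adjusted p = 0.0243). Brain minus liver was -0.049 ± 0.095 for Cst9 and 0.17 ± 0.10 for Cst13, and neither passed. For Cst13 it ran from 0.014 to 0.71 over 11 alternative settings and passed in 1, with normalisation within slide (0.28; limma, adjusted p = 0.0116). Exon 4 of Cst13 differed on both slides, by 0.80 ± 0.15 between brain and liver (limma, adjusted p = 4.00e-04) and by -0.57 ± 0.15 between adipose and muscle (adjusted p = 0.00800). The genes whose values followed theirs most closely were Rin2 (r = 0.656), AK044352 (r = 0.656) and AK015848 (r = 0.654) for Cst7 and Lep (r = 0.623), Svs3a (r = 0.490) and Cst10 (r = 0.471) for Cst9. For Cst13 they were Dzank1 (r = 0.700), Ncoa6 (r = 0.681) and Scp2d1 (r = 0.610).

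The array also held 3 other cystatin genes of 8 listed, Cst10, Cstl1 and Cstdc1, and none of them was high in adipose samples. Adipose minus muscle was 0.090 ± 0.098 for Cst10, -0.054 ± 0.12 for Cstl1 and -0.23 ± 0.08 for Cstdc1 (limma, adjusted p = 0.0362). Cst10 and Cstl1 were lower in brain than in liver, by -0.28 ± 0.10 and -0.60 ± 0.12 (adjusted p = 0.0320 and 7.44e-04). Of 17 other secreted protease inhibitors listed, 8 were measured, and 3 of them passed, all higher in adipose than in muscle, where 36.1% of all genes passed in either direction. Eppin, Spint4, Wfdc15a and Wfdc15b are on this list and on that of epididymis and testis genes, so the counts share genes. Of 11 listed lysosomal proteases only Ctsa was measured, at -0.015 between adipose and muscle.

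Between the genotypes, 1 of the 7 genes differed in 1 tissue. Cstdc2 was lower in congenic than in B6 adipose samples by a factor of 1.91, a difference of -0.93 ± 0.22 (95% confidence interval -1.38 to -0.48; limma, adjusted p = 0.0306). All 3 congenic samples (12.41, 12.88 and 12.41) lay below all 3 B6 samples (14.09, 13.28 and 13.13). Of all 341 genes 1.47% passed in congenic against B6 adipose, 1.17% as lower, and 8.8% were lower without overlap. The difference was -2.48 with the value table and -1.37 for averaged exons. With a block for the replicate number it stayed at -0.93 and passed (limma, adjusted p = 0.0209). With a block for the row of wells it did not pass (limma, adjusted p = 0.0940), although in adipose that row is also the replicate number. Nor did the difference pass with the adipose samples alone (limma, adjusted p = 0.358). It was -0.63 without B6 adipose replicate 1 (limma, adjusted p = 0.242), -0.87 without congenic adipose replicate 1 (adjusted p = 0.0943) and -0.87 without congenic adipose replicate 3 (adjusted p = 0.148).

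The 2 neighbours that were also high in adipose stood as follows. Cst12 differed by -0.34 ± 0.18 (95% confidence interval -0.71 to 0.027; limma, adjusted p = 0.698), with 12.09 ± 0.43 in congenic and 12.43 ± 0.34 in B6 adipose (SD, n = 3 each). With the value table it was -1.14 and passed (limma, adjusted p = 0.00447). Cst11 differed by 0.020 ± 0.19 (95% confidence interval -0.38 to 0.42), with its brightest exon held at 1 value by the normalisation. Whether Cstdc2 differed more than its neighbours was not tested.

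Epididymis, seminal vesicle and adipocyte genes were examined beside this result. The summed epididymis list was not lower in congenic adipose, at 37817 to 42557 against 35103 to 38557 in B6 adipose, and its median difference was 0.061, with 1 gene called, Defb29, which was lower (-0.43 ± 0.09). The seminal vesicle list, 6 of 6 measured, summed to 5129 to 12113 in congenic adipose and to 2357 to 4438 in B6 adipose, with a median difference of 1.15. Of these 6 genes 0 were called, where 1.47% of all genes passed. Leaving out both arrays highest in it, congenic adipose replicate 1 and congenic muscle replicate 3, gave -0.86 for Cstdc2 (limma, adjusted p = 0.0354). The congenic adipose samples that remained still summed to 5129 or more, above the highest B6 adipose sum of 4438, so the omission did not level this list. Of the 4 adipocyte genes 1 was called lower in congenic adipose, Adig, a gene of fat cell development, at -0.41 ± 0.08 (limma, adjusted p = 0.00872), and their median difference was 0.017. Their summed level was 6008 to 6700 in congenic adipose and 6416 to 6920 in B6 adipose. The parts of epididymis, seminal vesicle and fat cell content in the Cstdc2 difference were not tested.

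**Figure D2:**
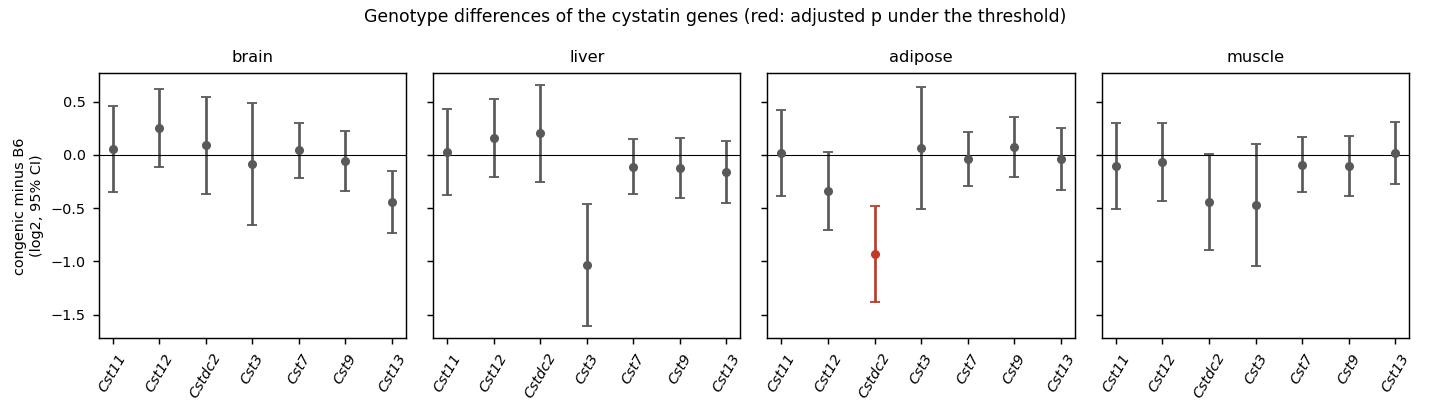
Congenic minus B6 differences (log2) of the 7 cystatin genes in each tissue, with 95% confidence intervals of the limma fit; red marks an adjusted p under 0.05. Cstdc2 in adipose, at -0.93, is the red point, and Cst3 in liver, at -1.04, is the farthest from 0.

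Cst3 was lower in congenic than in B6 liver by -1.04 ± 0.27, which did not pass (95% confidence interval -1.61 to -0.46; limma, adjusted p = 0.0951). Congenic liver, at 11.14, 10.76 and 11.26, lay below B6 liver, at 11.51, 12.69 and 12.07, without overlap, as did 7.04% of all genes. Before normalisation the congenic liver arrays had median intensities of 456, 741 and 667 and the B6 liver arrays of 454, 232 and 294, and the part of array brightness in the difference was not tested. Of 3 hepatocyte genes, all measured, Hnf4a was called higher in congenic liver (0.48 ± 0.07; limma, adjusted p = 8.43e-04) and the other 2 did not pass, with a median of 0.19. Their summed level was 8184 to 12164 in congenic and 8030 to 13185 in B6 liver, and their part was not tested. The difference passed in 2 of 11 alternative settings, where it ran from -1.41 to -0.82, and without B6 liver replicate 1 (-1.33; limma, adjusted p = 0.0112) or B6 brain replicate 1 (adjusted p = 0.0444). In muscle Cst3 stood at 12.78, 12.65 and 12.54 in congenic and at 13.03, 13.12 and 13.24 in B6 samples. These did not overlap either, as for 10.3% of all genes that were lower, and the difference of -0.47 ± 0.27 did not pass (limma, adjusted p = 0.869).

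In brain, liver and muscle 0 of the 7 genes passed in limma, with 1, 1 and 0 at an unadjusted p under 0.05. The shares of all genes that passed were 0.88%, 0.587% and 0.587%. Cst13 in brain was the gene with the smallest p there, at -0.44 ± 0.14 (adjusted p = 0.333), with 8.32 ± 0.16 in congenic and 8.76 ± 0.26 in B6 brain (SD, n = 3 each), which overlapped. Over 11 alternative settings it ran from -0.56 to 0.72, and the highest value came with dim features left out. Exon 1 of Cst13 differed by 1.37 in brain, with 9.61, 9.01 and 14.83 in congenic samples, so that 1 array set it apart. Cst12 was higher in every congenic than in every B6 brain sample, by 0.25 ± 0.18 (adjusted p = 0.682), as were 6.45% of all genes. The median difference of the 7 genes was 0.042 in brain and -0.11 in liver, against 0.0043 and 0.0056 over all genes. It was -0.037 in adipose and -0.10 in muscle, against -0.00070 and 0.012.

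Averaged over the 4 tissues, 0 of 7 genes passed (limma, 3 at an unadjusted p under 0.05), where 2.05% of all genes did. The average takes the 24 samples as independent. Cst3 averaged -0.38 ± 0.14 (limma, adjusted p = 0.171), Cstdc2 -0.27 ± 0.11 (adjusted p = 0.236) and Cst13 -0.16 ± 0.07 (adjusted p = 0.308). The genotype difference varied between tissues in 0 of 7 genes (limma interaction test, 2 at an unadjusted p under 0.05), where 0.293% of all genes passed. Those 2 were Cstdc2 (adjusted p = 0.234) and Cst3 (adjusted p = 0.561).

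The genotypes were also compared exon by exon, and a difference between exons of a gene was not tested. In adipose 1 of the 24 exon features passed as lower in congenic samples, where 0.355% of all 3099 features did. This was exon 3 of Cstdc2, 287 bases at 148599275 to 148599561, with 12.47, 12.81 and 12.26 in congenic and 14.62, 14.49 and 14.41 in B6 adipose. The difference was -1.99 ± 0.33 (limma, adjusted p = 0.00238). Raw intensities were 7753, 7965 and 10131 in congenic adipose and 21875, 35812 and 32648 in B6 adipose, where the exon ranked 2, 3 and 4 among all rows, near the ceiling set by the normalisation.

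The other exons of Cstdc2 followed the same direction. Exon 2 had 11.75, 12.21 and 11.34 in congenic and 13.10, 12.77 and 12.95 in B6 adipose, a difference of -1.17 ± 0.28 (limma, adjusted p = 0.0839). Exon 1 had 12.81, 13.27 and 12.80 in congenic and 14.49, 13.67 and 13.52 in B6 adipose, a difference of -0.93 ± 0.24 (adjusted p = 0.138). Median polish gave the gene the same adipose difference as exon 1, so the gene value adds nothing to this exon there. Neither overlapped between genotypes, and 6.78% of all features were lower without overlap. In the other tissues the 3 exons differed by -0.073 to -0.052 in brain, -0.095 to 0.28 in liver and -0.46 to 0.023 in muscle. The interaction of exon 3 had an adjusted p of 0.106 (limma).

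**Figure D3:**
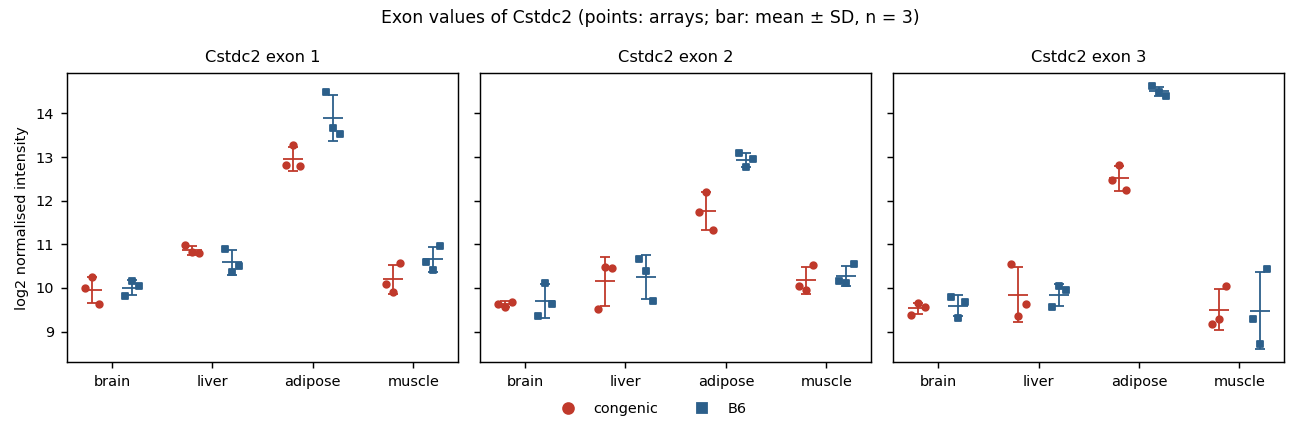
Values of the 3 exons of Cstdc2 (log2 normalised intensity) in each array by tissue, congenic circles left of B6 squares, with mean ± SD of 3. In adipose the genotypes separate in all 3 exons, most widely in exon 3, and in the other tissues they overlap.

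In liver 2 of 24 exon features passed as lower in congenic samples, both of Cst3, where 0.613% of all features did. Exon 3, 313 bases at 148624290 to 148624602, had 10.61, 10.79 and 10.86 in congenic and 11.54, 12.72 and 12.09 in B6 liver. The difference was -1.36 ± 0.30 (limma, adjusted p = 0.0283). Exon 2, 115 bases at 148625375 to 148625489, had 11.39, 11.34 and 11.26 in congenic and 12.04, 12.71 and 12.18 in B6 liver. The difference was -0.98 ± 0.19 (adjusted p = 0.0149). Neither exon overlapped between genotypes, as 5.39% of all features that were lower did not, while exon 1 overlapped (-0.42 ± 0.25, adjusted p = 0.492).

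The call of exon 3 in liver was lost without any of 5 liver arrays, B6 replicates 2 and 3 and congenic replicates 1, 2 and 3 (limma, adjusted p up to 0.0911). That of exon 2 was lost without B6 liver replicate 2 (-0.78; adjusted p = 0.0566). Averaged over tissues, exon 3 of Cst3 was the 1 feature of 24 that passed, at -0.73 ± 0.15 (limma, adjusted p = 0.0107), where 1.1% of all features were lower. With the replicate block its adjusted p was 0.0594, and those of the liver calls were 0.0890 for exon 3 and 0.0559 for exon 2. In muscle the 3 exons of Cst3 were lower without overlap, by -0.96, -0.58 and -0.34 from exon 3 to exon 1, where 9.75% of all features were. In brain and muscle 0 of 24 features passed in limma, with 2 at an unadjusted p under 0.05 in each, where 0.355% of all features passed in each tissue. The interaction passed in 0 of 24 features (6 at an unadjusted p under 0.05), where 0.226% of all features did.

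Exon 1 of Cst13 was set apart by 1 array. It was the brightest of all rows on congenic brain replicate 3, with a raw intensity of 15467, against 284 and 846 in the other congenic brain samples and 368, 426 and 521 in B6 brain samples. The probes of that row had a coefficient of variation of 1.65 there. In the fit reported, median polish kept this exon from setting the gene value, which was 8.49 on that array.

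The authors' value table gives each probe by itself, so the exon differences could be followed to single probes, a comparison chosen after the exon results had been seen. Probes are numbered along each gene from its first exon, and replicate numbers of this table need not be those of the scanner files. Of the 111 cystatin probes 2 were lower in congenic brain, where 0.261% of all probes were, and 7 in congenic liver, where 0.486% were. In adipose 10 were lower, against 0.396%, and in muscle 2, against 0.418%. Of the 444 tests of a probe in a tissue 0 passed as higher in limma, with 13 at an unadjusted p under 0.05. The shares of all probes that passed as higher were 0.209% for brain and 0.314% for liver, 0.0523% for adipose and 0% for muscle. Averaged over tissues 5 of 111 were lower, where 1.06% of all probes were. No probe sequences were used here, so differences between SPRET/Ei and B6 DNA under a probe, and binding to a related cystatin, were not tested.

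Of the 15 probes of Cst3, 2 were lower in congenic samples of all 4 tissues, Cst3 probe 11 and Cst3 probe 15, both in exon 3. Cst3 probe 11 differed by -4.43 in brain and -3.10 in liver, and by -4.35 in adipose and -3.51 in muscle. In brain it read 6.98, 9.74 and 6.70 in congenic and 12.64, 11.39 and 12.67 in B6 samples. Congenic replicate 2 was the highest of its group. Cst3 probe 15 differed by -2.43 in brain and -2.62 in liver, and by -1.76 in adipose and -1.72 in muscle. In brain it read 12.31, 12.39 and 10.79 in congenic and 14.06, 13.87 and 14.85 in B6 samples. No tissue had overlapping genotypes in either probe. Averaged over tissues they differed by -3.85 ± 0.33 and -2.13 ± 0.18 (limma, adjusted p = 1.45e-07 each). The median of the other 13 probes was -0.22, with a range from -0.57 to 0.15.

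Single arrays decided some of these calls. Cst3 probe 11 lost its call in liver without B6 replicate 1 or 2 or congenic replicate 1 (limma, adjusted p up to 0.0813), and in muscle without replicate 2 or 3 of either genotype (adjusted p up to 0.113). Cst3 probe 15 lost it in adipose without B6 replicate 1 or 3 or any congenic replicate (adjusted p up to 0.179), and in muscle without any 1 of the 6 muscle samples (adjusted p up to 0.177). In brain both probes passed after each of 24 omissions. With only the samples compared, Cst3 probe 11 did not pass in brain, liver or muscle (adjusted p = 0.0803, 0.391 and 0.0590), and Cst3 probe 15 in brain or liver (adjusted p = 0.188 and 0.163). With the replicate block, Cst3 probe 11 did not pass in liver or muscle (adjusted p = 0.0909 and 0.0922), and Cst3 probe 15 in adipose or muscle (adjusted p = 0.190 and 0.214). In liver Cst3 probe 7 (-1.58), Cst3 probe 9 (-1.48) and Cst3 probe 12 (-1.37) passed as well, and all 15 probes of the gene were lower in sign there, with a median of -0.58 for the 10 that did not pass, and 8 were lower without overlap, where 5.72% of all probes were. Cst3 probe 9 passed after 8 of 24 omissions of an array, and Cst3 probe 12 lost its call without B6 liver replicate 2 or congenic liver replicate 1 or 2 (adjusted p up to 0.109). In brain, adipose and muscle the 13 other probes had medians of 0.021, 0.13 and -0.40. In muscle 10 of the 15 were lower without overlap, where 8.36% of all probes were.

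**Figure D4:**
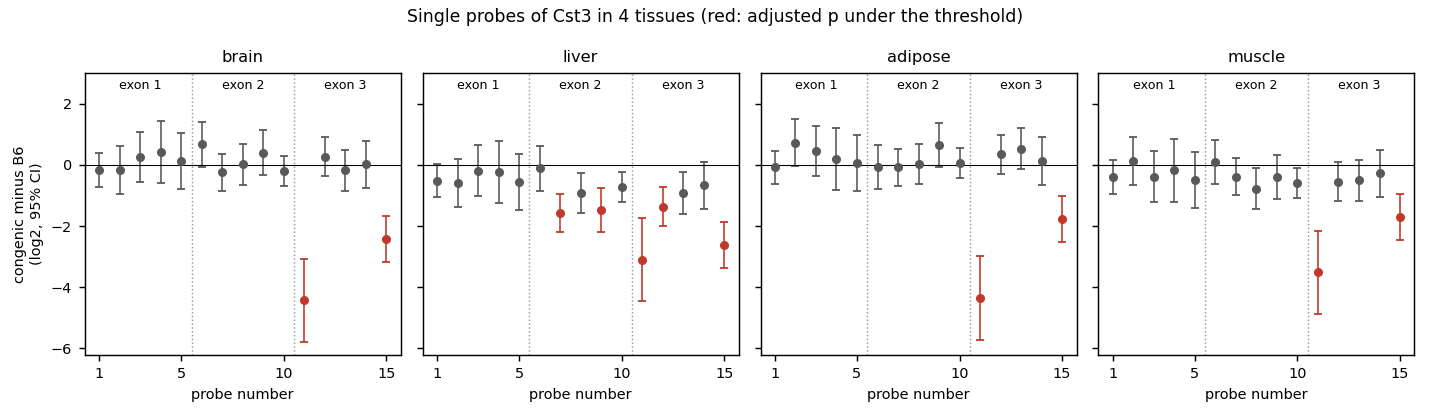
Congenic minus B6 differences (log2, with 95% confidence intervals) of the 15 probes of Cst3 in the 4 tissues, ordered from exon 1 to exon 3 with dotted lines between exons; red marks an adjusted p under 0.05. Probes 11 and 15 are low in every tissue, and in liver all 15 lie below 0.

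The probes of the 3 cystatins that were high in adipose were read there one by one, and whether the genes differed in their probe pattern was not tested. Cst11 probe 5, in exon 1, read 7.73, 8.57 and 6.78 in congenic and 11.91, 11.16 and 11.74 in B6 adipose. It was lower by -3.91 ± 0.35 (limma, adjusted p = 6.99e-07), while the other 14 probes of Cst11 had a median of 0.034 and a range from -0.52 to 0.76. Cst12 probe 4, in exon 1, read 6.90, 7.60 and 6.77 in congenic and 11.16, 10.29 and 11.52 in B6 adipose. It was lower by -3.90 ± 0.31 (adjusted p = 1.05e-07). Cst12 probe 8 was lower by -2.94 ± 0.60 (adjusted p = 0.0226), and the other 13 probes of Cst12 had a median of -0.27 and a range from -1.48 to 0.37. Of all 15 probes of Cst12, 13 were lower in sign. The call of Cst12 probe 8 was lost without B6 replicate 2 or 3 or congenic replicate 1 or 3 of adipose (adjusted p up to 0.194). That probe passed in 1 of 2 alternative settings, with an adjusted p of 0.427 in the other (limma).

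In Cstdc2 all 15 probes were lower in sign in congenic adipose, 10 of them without overlap, where 6.75% of all probes were lower without overlap. The 5 that passed were Cstdc2 probe 1 (-3.12), Cstdc2 probe 6 (-3.21), Cstdc2 probe 8 (-2.46), Cstdc2 probe 9 (-1.68) and Cstdc2 probe 14 (-2.59), spread over the 3 exons. The other 10 ranged from -2.97 to -0.47 with a median of -0.82. Cstdc2 probe 8 read 6.05, 6.55 and 5.94 in congenic and 8.55, 8.77 and 8.59 in B6 adipose. Cstdc2 probe 14 read 12.14, 12.45 and 12.16 in congenic and 14.57, 14.98 and 14.98 in B6 adipose. Cstdc2 probe 1 lost its call without B6 replicate 2 or 3 or congenic replicate 1 or 2 of adipose (adjusted p up to 0.158), and Cstdc2 probe 9 without B6 or congenic replicate 1 or 3 (adjusted p up to 0.199). With only the adipose samples, Cstdc2 probe 1 (adjusted p = 0.230), Cstdc2 probe 6 (adjusted p = 0.110) and Cstdc2 probe 9 (adjusted p = 0.0829) did not pass, and with the replicate block Cstdc2 probe 9 did not (adjusted p = 0.115). Cstdc2 probe 8 and Cstdc2 probe 14 passed in both settings.

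Outside adipose the single probes of Cst11 and Cst12 read low in both genotypes. Cst11 probe 5 read 5.70 to 6.98 in brain, liver and muscle of both genotypes, and its differences there were -0.53, -0.19 and -0.034. Cst12 probe 4 read 5.93 to 7.17 in those tissues, with differences of -0.089, -0.40 and 0.031. In liver Cstdc2 probe 9 was lower by -1.64 ± 0.36 (limma, adjusted p = 0.0257) and Cst13 probe 7 by -1.40 ± 0.31 (adjusted p = 0.0267). Neither passed with the replicate block or with only the samples compared (limma, lowest adjusted p = 0.0816 and 0.0563). Leaving out 1 array ended the liver call of Cstdc2 probe 9 for replicate 3 of either genotype (adjusted p up to 0.0935) and that of Cst13 probe 7 for B6 replicate 2 and congenic replicates 1 and 2 (adjusted p up to 0.119). In limma 0 of 96 such tests passed for Cst7 and 0 of 60 for Cst9, with 3 and 7 at an unadjusted p under 0.05. Averaged over tissues the lower probes were both of Cst3, Cst11 probe 5 (-1.17), Cst12 probe 4 (-1.09) and Cstdc2 probe 9 (-0.98).

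**Figure D5:**
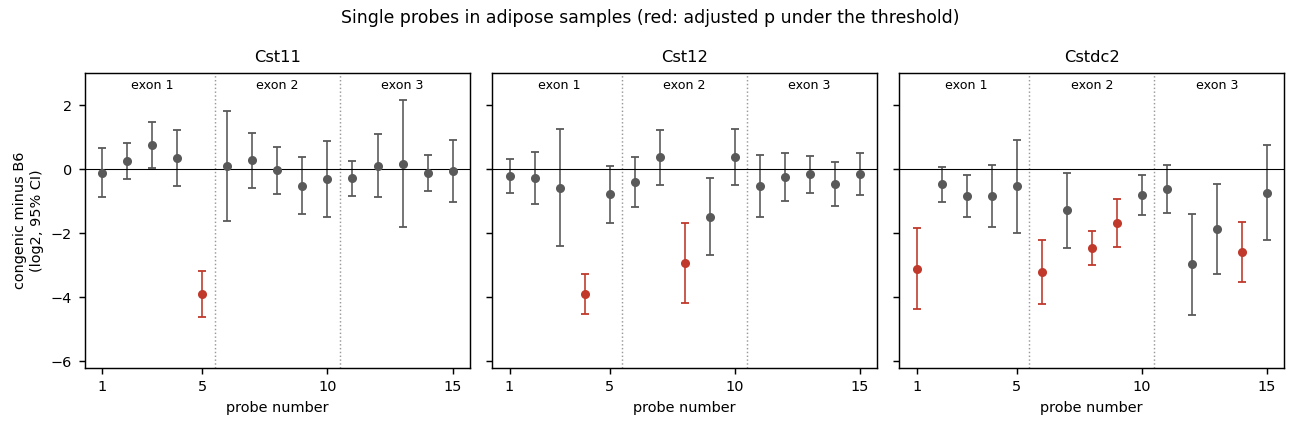
Congenic minus B6 differences (log2, with 95% confidence intervals) of the 15 probes each of Cst11, Cst12 and Cstdc2 in adipose samples, from exon 1 to exon 3; red marks an adjusted p under 0.05. In red are 1 probe of Cst11, 2 of Cst12 and 5 of Cstdc2; the other 13 of Cst12 run from -1.48 to 0.37, and all 15 of Cstdc2 lie below 0.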

How the data were processed

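Expression was measured in 24 samples, 3 in each of 8 groups of genotype and tissue, by hybridising biotin-labelled cRNA to 12-well NimbleGen slides. Each deposited scanner file gives, per the file headers, the mean intensity of the perfect-match probes of each exon, not normalised between arrays, and their coefficient of variation, a ratio of SD to mean. The deposited value table holds 1 intensity per probe, levelled between arrays by the authors. Per the submitters' processing notes RMA was among the tools. The build of the exon coordinates is not given in the sources used here.

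Background correction used normexp with an offset of 50, followed by quantile normalisation and log2, and exon rows of equal coordinates were averaged. Median polish over the exons of a gene gave its value. A limma 3.58.1 model (R 4.3.3) of 8 group means over all 24 arrays tested every difference, with Benjamini-Hochberg adjustment over all genes, exon features or probes. The number of arrays limits the precision. The fits were tested on simulated data. Probes of the value table were matched to genes by the platform annotation and to exons by order and transcript, and their log2 values correlated at 0.986 with their own exon row and at 0.214 with the next. Of 24 scanner files 7 matched the table column of their own number best, 17 that of another replicate of their group and 0 that of another group.

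Deviations of same-numbered samples correlated at -0.447 to 0.514 between genotypes, and at 0.514, 0.236 and 0.0915 in adipose. Since not every pair was over 0.1, the numbers were not taken to pair samples. On slide 2 all 4 replicate 3 samples lay in 1 row of wells, so that row and that number cannot be told apart there. The likest genes were the 3 with the highest Pearson correlation. Alternatives varied background correction, scaling, summary, samples, blocks and single arrays. Members and gene lists were chosen with earlier results of these data known. Probe sequences were not used here.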

Additional observations from a re-analysis of the deposited data

Results flagged for a closer look

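The genotype difference varied between tissues in 3 of 111 cystatin probes (limma interaction test), where 0.246% of all probes passed. Cst11 probe 5 passed with an adjusted p of 2.10e-04, with -3.91 in adipose and -0.53 to -0.034 in the other tissues. Cst12 probe 4 passed with 3.05e-05, with -3.90 in adipose and -0.40 to 0.031 elsewhere. Cstdc2 probe 8 passed with 3.46e-04, with -2.46 in adipose and -0.030 to 0.39 elsewhere. In brain, liver and muscle these probes read low in both genotypes (Cst11 probe 5 at 5.70 to 6.98, Cst12 probe 4 at 5.93 to 7.17, Cstdc2 probe 8 at 5.67 to 6.99), so that a lower level could hardly be seen there.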

How the results depend on the processing

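Cstdc2 in adipose kept its sign throughout. It did not pass with only the samples compared (-0.93; limma, adjusted p = 0.358) or the well row block (-0.93; adjusted p = 0.0940), and ran from -1.13 to -0.63 with 1 array left out. Counts of cystatin genes moved as follows. Brain minus liver gave 1 with the value table instead of 3. Adipose genotype calls, 1 in the fit reported, were 2 with the value table, 0 with only the samples compared and 0 with the well row block, and 0 to 1 without 1 array. Liver calls were 1 with the mean of exons and 1 with the value table instead of 0, and 0 to 1 without 1 array. The tissue mean gave 2 and 1, and the interaction 1 and 1, in those settings. Exon calls in adipose were 2 with median scaling, 3 without background correction and 2 with normalisation within slide instead of 1, and 1 to 2 without 1 array. In liver they were 1 with median scaling, 0 with only the samples compared, 0 with the replicate block and 1 with the well row block instead of 2, and 0 to 2 without 1 array. For the tissue mean they were 0 with the replicate block and 0 without both arrays high in seminal vesicle genes instead of 1, and 0 to 2 without 1 array. Muscle gave 1 with only its samples, and the interaction 2 without background correction, 1 within slide and 0 to 1 without 1 array. Probe calls with only the samples compared were 0 in brain, 0 in liver and 1 in muscle instead of 2, 7 and 2. With the replicate block they were 2 in liver, 0 in muscle, 8 for the tissue mean instead of 5 and 5 for the interaction instead of 3. Without 1 array they were 6 to 11 in adipose, 3 to 10 in liver, 5 to 8 for the mean, 0 to 2 in muscle and 3 to 5 for the interaction. Cst9 in adipose minus muscle reversed with dim features left out (-0.27; limma, adjusted p = 0.0429), where it equalled the difference of its exon 1. Other causes were not tested. Correlations of same-numbered samples were over 0.1 in 5 of 12 pairs of genotypes and 0 of 6 pairs of tissues, so the block has no stated basis. Low signal limits Cst13, whose exons 2 and 3 ranked 3391 to 3896 of 3919 rows by raw intensity over the 24 arrays.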
